A study of Mus musculus with 9 samples.

Results

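The genes of the microtubule cytoskeleton and its motors were examined in YFP-positive cells sorted from the amygdala of Thy1-YFP mice with different approach and avoidance behavior. They were chosen by symbol: the kinesins (Kif), kinesin light chains (Klc1 to Klc4), cytoplasmic and axonemal dyneins (Dync, Dynl, Dnah), dynactin (Dctn1 to Dctn6), the tubulins, 6 classical microtubule-associated proteins (MAPs), the stathmins and the neurofilaments. Of 120 annotated genes with such a symbol, 77 were listed in at least 1 of the 2 deposited tables, among 12275 listed genes in all. The table of balancing (BA) and avoiding (AV) mice listed 67 of them among 9872 genes, the table of BA and approaching (AP) mice 73 among 11820, and 63 stood in both. The other 43 were listed in neither table, among them Nefl, Nefm and Nefh, the 3 neurofilament genes, the neuronal kinesin Kif5a, the dynein intermediate chain Dync1i1 and the stathmin Stmn2.

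All mice carried the transgene B6.Cg-Tg(Thy1-YFP)HJrs/J, in which the Thy1 promoter drives yellow fluorescent protein (YFP) in pyramidal neurons of the amygdala and in several other neuron types of the brain. The labels name no treatment, and the groups were formed by spontaneous behavior in a conflict task that all mice had passed through. Each library held the RNA of YFP-positive cells sorted from the amygdala of a single mouse. There were 3 BA, 3 AV and 3 AP mice, and AV replicate 2 is not analysed here, which leaves 2 AV mice against 3 BA mice and 3 AP mice against the same 3 BA mice. The values are a normalized signal per gene and mouse, not read counts.

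Microtubules are hollow filaments of alpha and beta tubulin pairs, and each tubulin comes in several isotypes made by separate genes. In neurons they run along axons and dendrites, where most kinesins carry vesicles, mitochondria and RNA towards the plus end and cytoplasmic dynein, helped by dynactin, carries cargo back. MAPs such as tau and Map2 bind along the filament, and stathmins bind free tubulin. Cilia are built on microtubules too and use motors of their own: axonemal dyneins bend motile cilia, and dynein 2 and a few kinesins serve transport inside cilia or set their length. The transport motors are used by every cell type of the brain, not by neurons alone.

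The 300-base promoter windows of 4 genes on which the results below turn are shown first, as examples of a transport kinesin, of both kinds of tubulin and of the ciliary motors called in AV mice. Kif5c is the neuronal heavy chain of conventional kinesin, Tuba4a an alpha tubulin, Tubb4a the beta tubulin with the highest level in BA mice and Dnah10 an axonemal dynein heavy chain. The windows run from 250 bases before to 50 after the transcription start in RefSeq on GRCm38.p6, at chr2:49619036-49619335 (plus strand) for Kif5c, chr1:75219245-75219544 (minus) for Tuba4a, chr17:57087551-57087850 (minus) for Tubb4a and chr5:124724835-124725134 (plus) for Dnah10. Capitals mark motifs searched on both strands. The GC box was searched as GGGCGG. The CCAAT box was searched by those letters. The core of a cAMP response element was searched as TGACG, and a part of the motif recognised by ciliary RFX factors as GTTGCC. None of these motifs holds another, and where TGACG meets its reverse complement, as TGACGTCA in Kif5c, it counts on each strand.
Kif5c: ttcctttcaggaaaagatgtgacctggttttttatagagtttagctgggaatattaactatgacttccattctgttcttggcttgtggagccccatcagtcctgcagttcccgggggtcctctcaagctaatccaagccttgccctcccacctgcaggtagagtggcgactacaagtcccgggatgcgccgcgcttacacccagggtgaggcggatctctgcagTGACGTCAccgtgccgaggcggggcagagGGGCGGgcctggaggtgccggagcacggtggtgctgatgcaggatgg
Tuba4a: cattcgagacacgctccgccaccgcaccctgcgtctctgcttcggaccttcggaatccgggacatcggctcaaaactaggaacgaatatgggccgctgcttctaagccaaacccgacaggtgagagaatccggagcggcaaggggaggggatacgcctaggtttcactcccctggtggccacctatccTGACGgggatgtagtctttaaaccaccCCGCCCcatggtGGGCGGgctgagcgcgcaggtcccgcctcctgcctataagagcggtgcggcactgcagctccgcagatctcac
Tubb4a: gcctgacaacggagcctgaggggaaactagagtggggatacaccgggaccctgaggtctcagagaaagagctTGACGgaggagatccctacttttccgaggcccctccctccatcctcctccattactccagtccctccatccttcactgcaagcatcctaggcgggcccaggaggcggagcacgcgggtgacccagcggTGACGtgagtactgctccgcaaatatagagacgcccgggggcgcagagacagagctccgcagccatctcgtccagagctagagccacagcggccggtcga
Dnah10: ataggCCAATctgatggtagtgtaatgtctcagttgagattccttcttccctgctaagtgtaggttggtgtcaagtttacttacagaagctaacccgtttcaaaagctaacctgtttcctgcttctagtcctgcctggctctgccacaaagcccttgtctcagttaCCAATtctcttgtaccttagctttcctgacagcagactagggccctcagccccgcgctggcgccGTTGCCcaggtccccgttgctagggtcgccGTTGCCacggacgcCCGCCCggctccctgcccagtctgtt
The window of Kif5c held 1 GGGCGG and 2 TGACG, that of Tuba4a 2 GGGCGG and 1 TGACG, that of Tubb4a 2 TGACG, and that of Dnah10 1 GGGCGG, 2 CCAAT and 2 GTTGCC. Of all 32851 promoter windows of this length, 35.7% held GGGCGG, 37.4% CCAAT, 20.8% TGACG and 12.5% GTTGCC. Of the genes described here, 56 of 77 were matched, with 64 windows, of which 73.4% held GGGCGG and 35.9% TGACG. The RFX letters GTTGCC were present in 46.2% of the 13 windows of 12 ciliary motors and in 25% of the 64 windows. Kif13b, Stmn4, Tubb6 and Kif19a had no entry. A match describes these letters only, and binding of a factor was not measured.

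The values of a mouse had a sum of 3267967 to 3974274 for BA vs AV and of 4589304 to 5072766 for BA vs AP. In the BA vs AP table most low values lie on steps of 1 read above an offset of 2, and a level of 3 reads corresponds to between 4.13 and 5.68. The depth behind the BA vs AV values, for which no step was measured, is unknown, and 5.68 was used as their limit too. These limits cover counting error only. The tables were normalized separately: the 3 BA mice had a mean in the BA vs AP table that was 1.19 times that in the BA vs AV table in the median of the 63 shared genes. Dynlt1c lay outside, with a ratio of 0.222, followed by Kif24 with 0.777.

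The defining markers of the labelled pyramidal neurons were largely not listed. Of 12 markers of forebrain pyramidal neurons, 4 were listed in the BA vs AV table (Camk2a, Nrgn, Ddn and Rorb) and 3 in the BA vs AP table, and Slc17a7, Slc17a6, Neurod2 and Tbr1 were listed in neither. The summed level of the listed pyramidal markers was between 318 and 571 in BA and between 2753 and 5736 in AV mice. The summed level of 7 of 7 oligodendrocyte markers, such as Mbp, moved the other way, with 57441 to 85115 in BA and 31605 to 39475 in AV mice, and 5 of the 7 were called lower in AV mice. This is between 1.51% and 2.14% of all signal in BA and between 0.967% and 1.15% in AV mice. Astrocyte markers (7 of 8 listed, 4 called higher) summed to 10073 to 15849 in BA and 31174 to 61000.5 in AV mice, and 3 of 9 listed microglial markers, all called higher, to 237 to 354 and 722 to 939. Of all 9872 genes in this table, 13.6% were called higher and 16.2% lower. In the BA vs AP table the oligodendrocyte sum was between 67568 and 104174 in BA and between 78652 and 99498 in AP mice, and the pyramidal sum was 99.2 in AP replicate 1, 1340 in AP replicate 2 and 2360 in AP replicate 3, against 110 to 157 in BA mice. AP replicate 1 stands apart from the other AP mice in this, and values without it are given below. In sorted bulk RNA, fewer cells of a type and less RNA per cell cannot be told apart. The part of these markers in the results below was not tested.

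**Figure D1:**
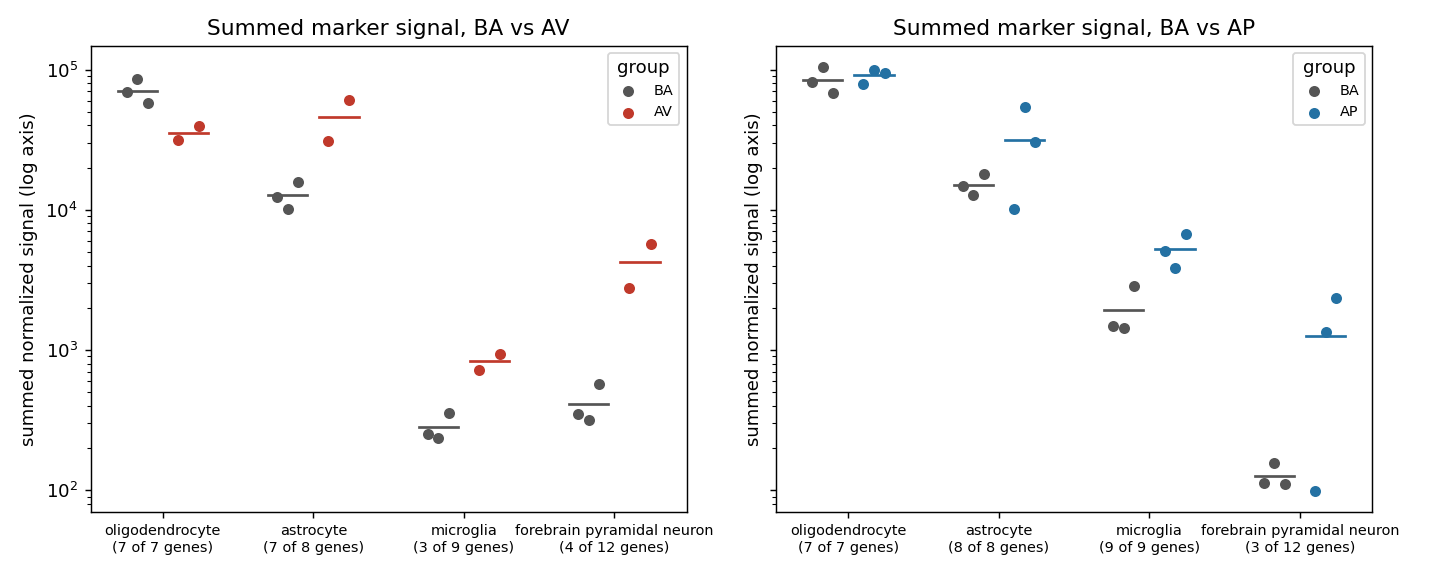
Summed normalized signal (log axis) of the listed markers of 4 cell types, with 1 point per mouse and a bar at the group mean, in the BA vs AV table (left) and the BA vs AP table (right). In AV mice the oligodendrocyte sum lies below that of every BA mouse and the other 3 sums above, and AP replicate 1 has the lowest pyramidal sum of all mice in its table.

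Between BA and AV mice, 23 of the 67 listed genes were called at an adjusted p under 0.05, 11 up-regulated and 12 down-regulated in AV mice. This is 34.3%, beside 29.7% of all 9872 genes in the table. The median log2 fold change, AV over BA, was -0.08 over the 67 genes and -0.03 over all genes. In 44 of the 67 genes (65.7%) the AV mice lay outside the range of the BA mice, beside 58.9% of all genes: 21 above, where the table had 27.7%, and 23 below, where it had 31.3%. Fold changes were above 0 for 32 of the 67 genes, beside 48.5% of all genes. Of 10 alpha and beta tubulins, 6 were up-regulated and 1 was down-regulated, with a median of 1.53. These include Tubb6, which was low in BA mice and can have passed the filter on low counts through the AV mice. Of 30 genes of neuronal transport (transport kinesins, kinesin light chains, cytoplasmic dynein and dynactin), 4 were up-regulated, 4 were down-regulated and 22 did not pass, with a median of -0.09. Of 12 ciliary motors, 5 were down-regulated and none was up-regulated, with a median of -0.91. In the table as a whole, 13.6% of genes were called higher and 16.2% lower.

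**Figure D2:**
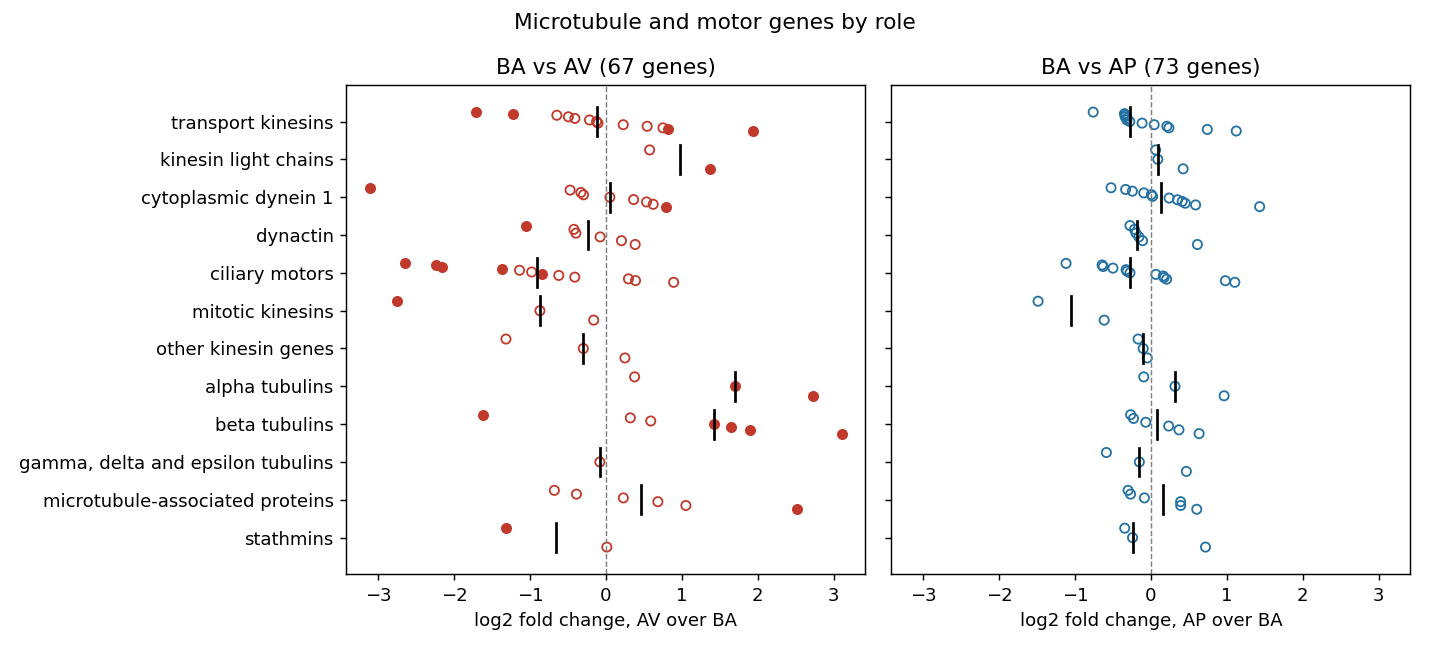
Log2 fold change of each listed gene by role, AV over BA (left, 67 genes) and AP over BA (right, 73 genes), with filled points for genes called at an adjusted p under 0.05 and a black bar at the median of the role. On the left, filled points of the tubulins lie mostly to the right and those of the ciliary motors to the left, and on the right no point is filled.

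Of the roles with 3 or more listed genes, the alpha and beta tubulins had the highest medians. Tubb4a, a beta tubulin that in the brain is abundant in oligodendrocytes, had the highest level of the 67 genes per kb of exon, 5863 ± 697 (SD, n = 3) in BA mice. Its signal was 13009.9, 14639.5 and 11536 in the BA mice and 3867 and 4658 in the AV mice. Both AV mice were below all BA mice (log2 fold change -1.61, SE 0.23, adjusted p = 0.00477). The oligodendrocyte marker sum given above moved the same way, and its part in the fall was not tested.

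The other beta tubulins that passed the test were up-regulated. Tubb2a, one of the main isotypes of neurons, had a signal of 180.0, 155 and 172 in BA and 535 and 740.0 in AV mice (log2 fold change 1.89, SE 0.24, adjusted p = 0.00395). Tubb5, which is expressed in most cell types, was at 326, 335 and 312 in BA and at 992 and 1034 in AV mice, with 1.64 (SE 0.21, adjusted p = 0.00386). In both genes the groups were far apart, and the AV mice lay closer together in Tubb5 than in Tubb2a. Tubb6, a minor isotype found in many tissues, was low, at 13.99, 6.49 and 12.04 in BA and 84.9 and 110.4 in AV mice, and had the largest increase of the tubulins (3.11, SE 0.34, adjusted p = 0.00325). It was not listed in the BA vs AP table. A gene at its BA level can pass a filter on low counts through the AV mice, so its increase lends no support by itself. Tubb2b, a close relative of Tubb2a, was at 271, 262 and 237 in BA mice but at 421 and 1129 in the AV mice. Its log2 fold change of 1.42 (adjusted p = 0.0392) rested on AV replicate 3: without it the value was 0.71 with an adjusted p of 0.0776, and without any 1 of the BA mice the adjusted p lay between 0.103 and 0.113. Tubb3, the beta tubulin used as a marker of neurons, was at 84.9, 175 and 67.9 in BA and 214 and 107 in AV mice, and these ranges overlap (0.59, SE 0.47, adjusted p = 0.374). Tubb4b did not pass either (0.32, adjusted p = 0.449).

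The make-up of the listed beta tubulins therefore differed between the groups. Per kb of exon, Tubb4a held between 91.6% and 92.2% of the summed signal of the 7 listed beta tubulins in BA mice, and 59.7% and 58.2% in AV mice. Among the alpha tubulins, Tuba1a, the main alpha isotype of neurons, was at 2263, 1968 and 1344 in BA and 2486 and 2238 in AV mice, with overlapping groups (0.38, SE 0.28, adjusted p = 0.345). Tuba1b, which is expressed in most cells, was at 371, 320.0 and 253 in BA and 961 and 1074 in AV mice (1.70, SE 0.25, adjusted p = 0.00503). Tuba4a, an isotype whose gene encodes no terminal tyrosine, was at 52.5, 49.8 and 60.3 in BA and 345 and 379.9 in AV mice, which is 2.72 (SE 0.22, adjusted p = 0.00256). Per kb, Tuba1a still held between 64.8% and 69.5% of the signal of the 3 listed alpha tubulins in AV mice, against 83.1% to 85.6% in BA mice. Tuba1a and Tuba1b share 77.0% and 68.9% of their 31-base exon stretches with other genes, mainly Tuba1c, Tubb2a and Tubb2b share 56.4% and 43.1%, mainly with each other, and the split of reads between such genes is uncertain. Tuba4a shares only 2.80%, but 1379 bases of its exons lie opposite exons of Stk16. The gamma tubulin Tubg1, which nucleates microtubules, had a mean of 41.4 in BA and 40.3 in AV mice (adjusted p = 0.846).

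Among 13 transport kinesins, 2 were up-regulated and 2 down-regulated in AV mice, and the median was -0.12. This is 30.8% called, beside 29.7% of all genes. Kif5c, the heavy chain of conventional kinesin made mainly in neurons, was at 574, 743 and 467 in BA and at 2005 and 2479 in AV mice. The groups were well apart, with a log2 fold change of 1.93 (SE 0.27, adjusted p = 0.00467). The pyramidal, astrocyte and microglial marker sums given above moved the same way, and their part in the rise was not tested. Kif5b, the heavy chain present in most cells, was at 1137, 1634 and 1381 in BA and 1681 and 2365 in AV mice, so that both AV mice were above the BA mice, without passing the test (0.54, SE 0.27, adjusted p = 0.170). Per kb, Kif5c held 27.4% to 36.1% of the summed signal of Kif5b and Kif5c in BA mice and 53.9% and 57.1% in AV mice. Kif1a, which carries precursors of synaptic vesicles, was at 4175, 5004 and 3671 in BA and 6821 and 8211 in AV mice. Its increase of 0.82 (SE 0.24, adjusted p = 0.0430) was near the threshold, and it was not called without AV replicate 3 (adjusted p = 0.107) or without any 1 BA mouse (0.0730 to 0.127).

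Both transport kinesins called lower belong to the kinesin-3 family, as do Kif1a, which was called higher, and Kif1b, which was not called. Kif13b, a motor of phosphoinositide-bound vesicles, was at 3069, 3020 and 2323 in BA and 777 and 931 in AV mice (-1.71, SE 0.24, adjusted p = 0.00464). Kif13a, named after its values were seen, was at 1505, 1291 and 1211 in BA and 588 and 551 in AV mice (-1.22, SE 0.22, adjusted p = 0.00868). With the replicate number as a block, Kif13a was not called (adjusted p = 0.0661). In both genes the AV mice were far below the BA mice. Kif1b, a motor of mitochondria and vesicles and the kinesin with the highest level per kb (757 ± 117 in BA mice), was at 12449, 15682 and 11877 in BA and 9422 and 9364 in AV mice, which did not pass (-0.49, SE 0.23, adjusted p = 0.147). Kif21a, a kinesin that restrains microtubule growth, had means of 1738 in BA and 1113 in AV mice (-0.65, adjusted p = 0.0673), and Kif3a, a subunit of heterotrimeric kinesin-2, of 573 and 434 (-0.41, adjusted p = 0.272).

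Of the kinesin light chains, which link cargo to conventional kinesin, Klc2 was up-regulated, at 35.7, 34.0 and 27.02 in BA and 76.4 and 93.3 in AV mice (1.37, SE 0.24, adjusted p = 0.00786). Klc1, at a higher level per kb in BA mice (209 against 7.80), had means of 850 in BA and 1257 in AV mice and did not pass (0.57, SE 0.23, adjusted p = 0.105). Of 9 listed genes of cytoplasmic dynein, 2 passed (22.2%, beside 29.7% of all genes). The heavy chain Dync1h1, the motor itself, was at 6081, 7076 and 5169 in BA and 4770 and 5109 in AV mice (-0.30, SE 0.23, adjusted p = 0.370). The light chain Dynll1 had means of 398 and 615 (0.62, adjusted p = 0.0828), and the light intermediate chain Dync1li1 of 254.6 and 263 (0.05, adjusted p = 0.897).

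The light chain Dynlrb1 was up-regulated, at 172, 203 and 173 in BA and 315 and 318 in AV mice (0.80, SE 0.21, adjusted p = 0.0322). The call was lost whichever mouse was left out, with an adjusted p between 0.0577 and 0.0975. Dynlt1c, a light chain of the Tctex family, was at 147, 133 and 100.3 in BA and 5.28 and 33.0 in AV mice (-3.11, SE 0.65, adjusted p = 0.0141). AV replicate 1 was under the level of 3 reads, and without it the value was -1.89. Without BA replicate 1 or 2 the adjusted p was 0.0599 and 0.0598. Dynlt1c shares 86.5% of its 31-base exon stretches with other genes, mainly Dynlt1f, and in the BA vs AP table the same BA mice were listed at 55.9, 23.3 and 4.97, so its level is uncertain. Of 6 dynactin genes, only 1 passed (16.7%, beside 29.7% of all genes). This was Dctn4, a subunit of the pointed end of the complex, at 1081, 1309 and 1122 in BA and 506 and 624 in AV mice (-1.05, SE 0.23, adjusted p = 0.0161). Without BA replicate 2 or 3 its adjusted p was 0.0672 and 0.0513. Dctn1, the subunit that binds dynein and the microtubule, had means of 1012 and 1164 (0.20, adjusted p = 0.505), Dctn2 of 658 and 489.9 (-0.42, adjusted p = 0.177), and Dctn3, with the largest increase of the complex, of 45.9 and 58.2 (0.38, adjusted p = 0.381).

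Of the 6 MAPs, only Map2 passed (16.7%, beside 29.7% of all genes). Map2, the MAP of dendrites, was at 819, 917 and 1154 in BA and at 4703 and 6319 in AV mice. Both AV mice were far above every BA mouse, and the log2 fold change was 2.51 (SE 0.26, adjusted p = 0.00314). Map1b, a MAP of growing axons, was at 1878, 3481 and 1824 in BA and 5421 and 4145 in AV mice, above all BA mice but past the threshold only with some settings (1.05, SE 0.34, adjusted p = 0.0583, and 0.0315 without AV replicate 3 or 0.0363 without BA replicate 2). Map1a, a MAP of mature neurons, was at 4681, 6254 and 4790 in BA and 8922 and 7805 in AV mice (0.68, SE 0.24, adjusted p = 0.0707). Mapt, which encodes the axonal protein tau, was at 3214, 3633 and 2427 in BA and 1871 and 1936 in AV mice (-0.68, SE 0.25, adjusted p = 0.0833). In these 3 genes the groups did not overlap, as in 58.9% of all genes, and none passed. Map4, the MAP of most tissues, and Map6, which protects microtubules from cold, overlapped between groups, with 0.23 (adjusted p = 0.463) and -0.39 (adjusted p = 0.313).

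Stmn4, a brain stathmin that sequesters tubulin, was at 1575, 1780 and 1410 in BA and 664 and 604 in AV mice. It was down-regulated (-1.32, SE 0.22, adjusted p = 0.00716), and the groups were far apart. The oligodendrocyte marker sum was lower in AV mice as well as Stmn4, Kif13a and Kif13b, and its part in these values was not tested. Stmn1, the founding member of the family, had means of 1140 ± 291 (SD, n = 3) in BA and 1133 ± 189 (SD, n = 2) in AV mice, a difference of 0.01 with an SE of 0.28 (adjusted p = 0.982).

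**Figure D3:**
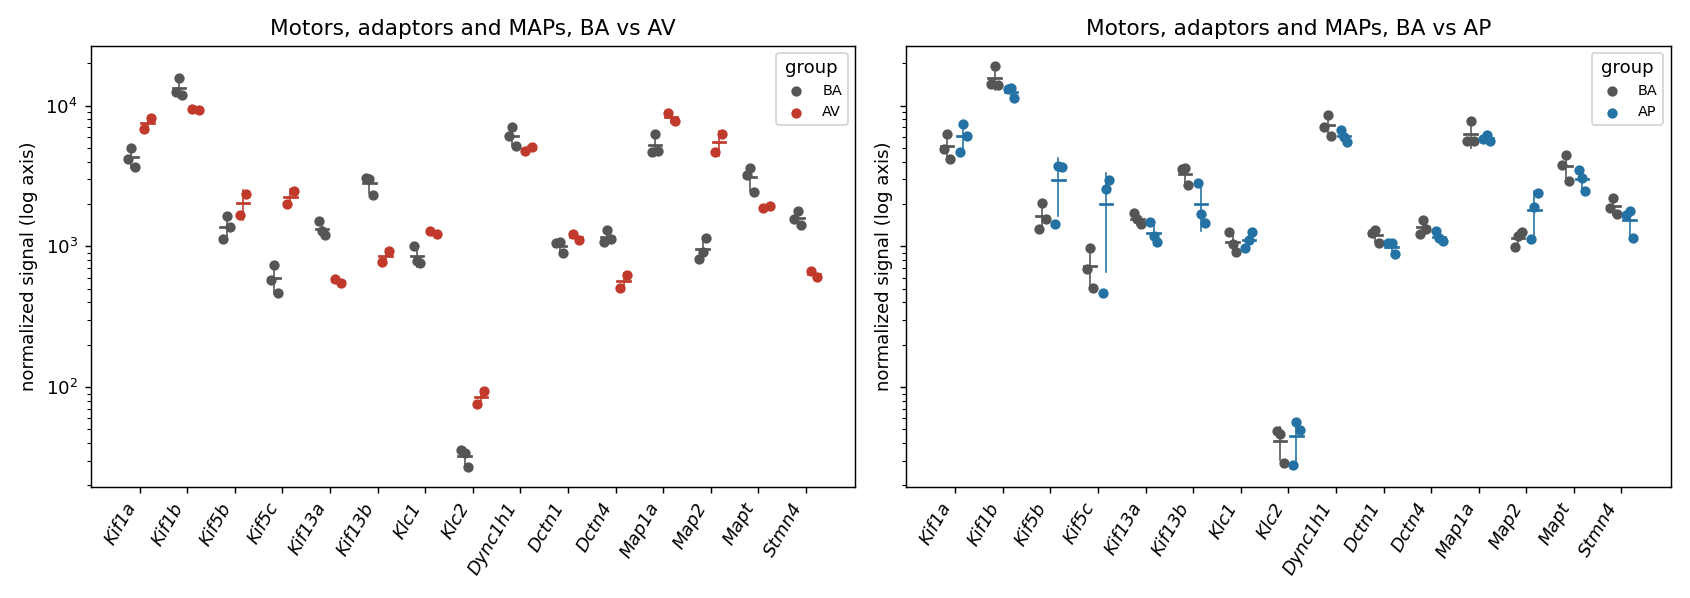
Normalized signal (log axis) of 15 transport motors, light chains, dynactin subunits, MAPs and Stmn4, with 1 point per mouse, a bar at the mean and a line for ±1 SD, for BA vs AV (left) and BA vs AP (right). Kif5c and Map2 are higher and Kif13a, Kif13b and Stmn4 lower in both AV mice, while AP replicate 1 lies within or just below the BA range for Kif5c, Kif5b and Map2.

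The ciliary motors were at far lower levels than the transport genes. In BA mice the median level per kb of exon was 4.04 over the 12 listed ciliary motors (range 0.635 to 26.6) and 99.3 over the 30 transport genes (range 7.80 to 757). A gene at such a level can pass a filter on low counts through the group in which it is higher. The counts and medians over listed ciliary genes therefore lend no support by themselves. Of 25 annotated ciliary genes, 13 were not listed in this table. Dnah10, a heavy chain of the inner dynein arm, was at 46.1, 72.5 and 50.8 in BA and 5.24 and 12.1 in AV mice (-2.64, SE 0.37, adjusted p = 0.00464). Its AV replicate 1 was under the level of 3 reads, and the value lay between -3.18 and -2.11 without any 1 mouse. Kif19a, which shortens motile cilia by removing tubulin at their tips, was at 88.1, 126 and 94.4 in BA and 34.1 and 44.3 in AV mice (-1.36, SE 0.26, adjusted p = 0.0106). In both genes the AV mice were below all BA mice.

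Dnah3, another inner arm heavy chain, was at 15.2, 14.98 and 19.02 in BA and 3.12 and 2.29 in AV mice. Kif7, a kinesin of Hedgehog signaling at the tip of the primary cilium, was at 19.2, 19.5 and 20.3 in BA and 2.57 and 4.95 in AV mice. Both were called (adjusted p = 0.00319 and 0.00395), and since both AV mice were under the level of 3 reads, the fall is given as a bound: Dnah3 was at least 2.89-fold lower and Kif7 at least 3.46-fold lower in AV mice. Genes at these AV levels can have passed the filter through the BA mice alone, so these 2 calls lend no support by themselves. The level of 3 reads was taken from the BA vs AP values, and the bounds rest on it. With these 2 genes at their bounds the median of the ciliary motors is -0.91 as before, since both bounds still lie below the middle of the 12 values. Exons of Kif7 and Dnah3 lie opposite exons of other genes over 928 and 1506 bases. Kif24, which acts at the base of the cilium on the mother centriole and restrains its growth, was at 232, 194 and 214 in BA and 119 and 118 in AV mice (-0.84, SE 0.21, adjusted p = 0.0268), and the call was lost without any 1 BA mouse (adjusted p 0.0689 to 0.0863). The same BA mice had a mean of 213 for Kif24 here and 166 in the BA vs AP table. That ratio of 0.777 stands against 1.19 in the median shared gene, so the BA level behind this call is uncertain.

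The 7 other ciliary motors did not pass. Dync2h1, the heavy chain of dynein 2 and at the highest level per kb of these, was at 388, 399 and 505 in BA and 389 and 266 in AV mice, with overlapping groups (-0.41, adjusted p = 0.278). Its partner Dync2li1 had -0.98 (adjusted p = 0.266). Kif6, an axonemal kinesin, had means of 74.6 and 48.1 and no overlap (-0.62, adjusted p = 0.0667), and the heavy chain Dnah14 had -1.14 (adjusted p = 0.116). Dnah9, Kif9 and Dnah5 had values above 0 (0.89, 0.39 and 0.30), with adjusted p of 0.114, 0.701 and 0.643. Dnah9, an outer arm heavy chain, was at 28.1 in AV replicate 1 and 13.04 in AV replicate 3, against 7.95, 9.11 and 13.3 in BA mice, and without AV replicate 3 it had 1.42 with an adjusted p of 0.00886.

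Set against each other mouse by mouse, the ciliary motors lay below the transport genes in both AV mice. The median difference from the BA mean over the 12 ciliary motors was -0.70 in AV replicate 1 and -0.76 in AV replicate 3, while it lay between -0.10 and 0.10 in the BA mice. Over the 30 transport genes it was -0.02 and -0.12 in the AV mice and between -0.08 and 0.08 in the BA mice. Over the 10 tubulins it was 1.35 and 1.73 in the AV mice. Each BA mouse is part of the BA mean, which draws the BA values towards 0 by construction, and the AV mice are not. The difference between these groups of genes was not tested, and the ciliary medians cover only genes that passed the filter on low counts. Beside the ciliary values, 2 of 8 markers of ependymal and choroid plexus cells were listed, with a summed level of 68.9 to 89.7 in BA and 33.0 to 42.6 in AV mice, and the fall in this sum is that of Foxj1, described below. The other, Rarres2, was at 7.01, 6.52 and 15.2 in BA and 12.4 and 10.8 in AV mice and overlapped (0.34, adjusted p = 0.515). Ccdc153 and Tmem212, markers of ciliated ependymal cells, were not listed.

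**Figure D4:**
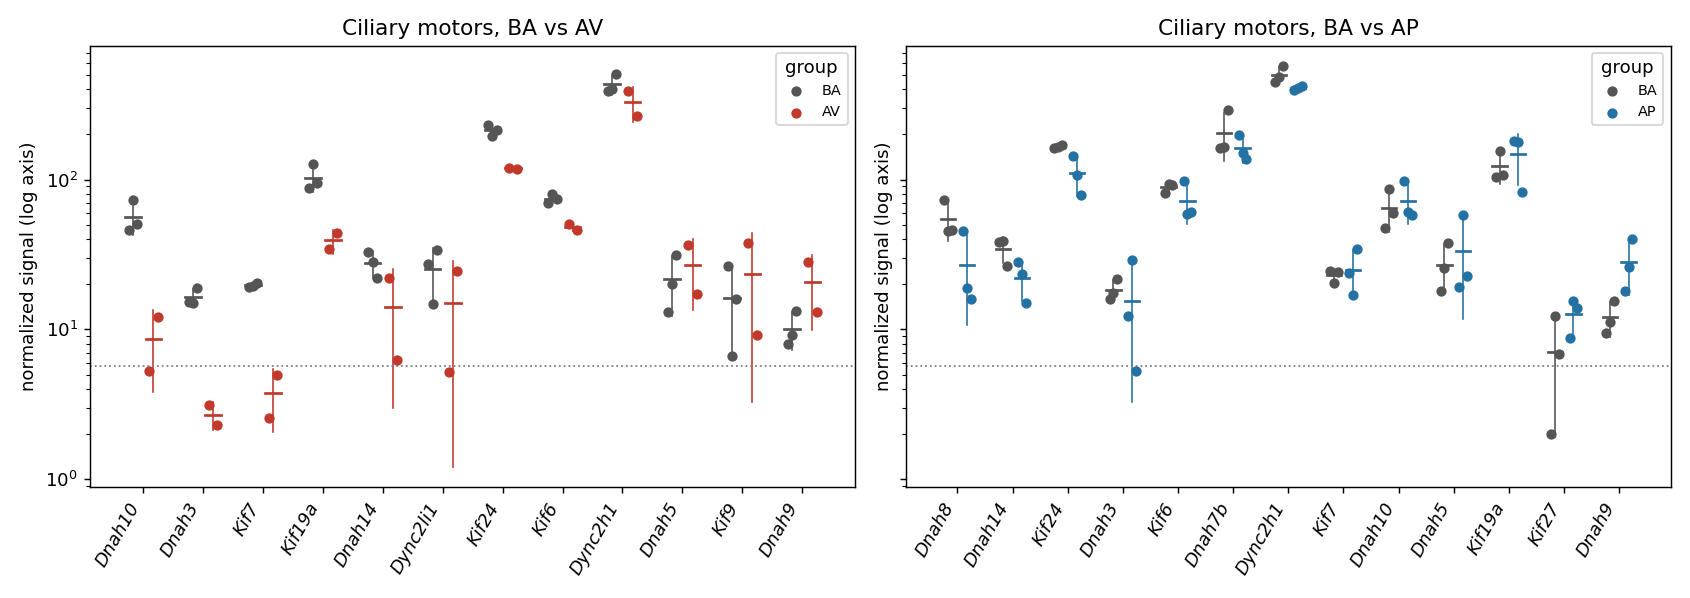
Normalized signal (log axis) of the listed ciliary motors, ordered by log2 fold change, with 1 point per mouse, a bar at the mean and a line for ±1 SD, for BA vs AV (left) and BA vs AP (right). The dotted line is the level of 3 reads (5.68), under which both AV mice lie for Dnah3 and Kif7.

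Of 3 listed mitotic kinesins, Kif18a, which aligns chromosomes in dividing cells, was down-regulated, at 43.1, 45.9 and 55.9 in BA and 3.07 and 11.98 in AV mice (-2.75, SE 0.47, adjusted p = 0.00737). AV replicate 1 was under the level of 3 reads, and the value was -1.92 without it and -3.59 without AV replicate 3. The mean of the BA mice for Kif18a in the BA vs AP table was 1.46 times that in this table, the highest such ratio of the 63 shared genes. Kif20b, a kinesin of cytokinesis, had -0.87 (adjusted p = 0.155) and Kif11, the motor that separates spindle poles, -0.16 (adjusted p = 0.917). Of 6 markers of dividing cells, 1 was listed in this table. The microtubule depolymerase Kif2a, the kinesin-binding protein Kif1bp and Kif26a did not pass, with values of 0.25, -0.30 and -1.32 and adjusted p from 0.145 to 0.387.

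Related genes of the pathway were called at shares between 18.9% and 40.0% for the lists with more than 1 listed gene, beside 29.7% of all genes. Of 35 motor adaptors and regulators, 27 were listed, 5 up-regulated and 3 down-regulated (29.6% called). Mapk8ip2, a scaffold that ties cargo to kinesin, had a signal of 50.4 to 54.8 in BA and 229 to 267 in AV mice (2.22, adjusted p = 0.00288), and Bicd1, an adaptor of dynein, 708 to 1070 in BA and 434 to 453 in AV mice (-1.03, adjusted p = 0.0251). Of 30 listed of 36 other microtubule-binding proteins, 6 were up-regulated and 6 down-regulated (40.0% called). Dpysl3, a collapsin response mediator protein, was at 13.2 to 46.9 in BA and 116 to 197 in AV mice (2.61, adjusted p = 0.0118), and Map7, which recruits conventional kinesin to microtubules, was at 3547 to 4432 in BA and 1014 to 1053 in AV mice (-1.93, adjusted p = 0.00328).

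Of 48 genes of tubulin folding, nucleation, severing and modification, 30 were listed, 1 up-regulated and 8 down-regulated (30.0% called). Svbp, the partner of the enzymes that remove the last tyrosine of alpha tubulin, was the increase (1.51, adjusted p = 0.0425), and Agbl2, a carboxypeptidase of the tubulin tail, the largest decrease (-2.87, adjusted p = 0.00508). Of 67 genes of intraflagellar transport and the axoneme, 37 were listed, 4 up-regulated and 3 down-regulated (18.9% called), with a median of -0.05. Dnal1, a light chain of axonemal dynein, was at 143 to 184 in BA and 417 to 442 in AV mice (1.46, adjusted p = 0.00596). Foxj1, the transcription factor of motile cilia and also 1 of the ependymal markers, was at 61.9 to 74.5 in BA and 22.2 to 30.2 in AV mice (-1.38, adjusted p = 0.00777). Of the other intermediate filaments only Nes, or nestin, was listed, at 29.8 to 36.6 in BA and 78.8 and 291 in AV mice (2.18, adjusted p = 0.0206).

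Between BA and AP mice, none of the 73 listed genes was called by limma, and of all 11820 genes 1 was (0.00846%). At an unadjusted p under 0.05, 6 of the 73 stood out (8.22%), beside 7.77% of all genes. In 8 of the 73 genes (10.96%) the AP mice lay outside the range of the BA mice, beside 12.1% of all genes: 2 above, where the table had 5.64%, and 6 below, where it had 6.45%. Fold changes were above 0 for 33 of the 73 genes, beside 46.5% of all genes. The median log2 fold change, AP over BA, was -0.09 over the 73 genes and -0.03 over all genes. By role it was -0.05 over 34 transport genes, -0.28 over 13 ciliary motors and 0.23 over 9 alpha and beta tubulins. The shares are near those of the table as a whole. The BA mice are the same as in the other comparison.

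Several genes were spread widely over the AP mice, with AP replicate 1 within or below the range of the BA mice and the other two above it. Kif5c was at 690, 974 and 510 in BA mice and at 469, 2559 and 2950 in AP mice, in the order of the replicates. Its log2 fold change was 1.12 (SE 0.65, adjusted p = 0.708), and without AP replicate 1 it was 1.97 with an adjusted p of 0.0822. Kif5b was at 1327, 2035 and 1559 in BA and 1438, 3748 and 3655 in AP mice (0.74, SE 0.39, adjusted p = 0.696, and 1.196 without AP replicate 1, adjusted p = 0.128). Tubb2a was at 207, 199 and 194 in BA and 137, 483 and 449 in AP mice (0.63, SE 0.45, adjusted p = 0.736, and 1.22 without AP replicate 1, adjusted p = 0.110). In these 3 genes AP replicates 2 and 3 were above all BA mice and AP replicate 1 was not. The pyramidal and astrocyte marker sums had the same split, with an astrocyte sum of 10206 in AP replicate 1 against 53784 and 30322 in the others and 12715 to 17909 in BA mice. Their part in these values was not tested.

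Map2 was at 995, 1176 and 1266 in BA and 1126, 1913 and 2408 in AP mice (0.60, SE 0.31, adjusted p = 0.694). Kif1a was at 4929, 6270 and 4202 in BA and 4702, 7421 and 6077 in AP mice and overlapped (0.24, SE 0.26, adjusted p = 0.821). Tubb4a was at 15128, 17611 and 13877 in BA and 15173, 14294 and 9765 in AP mice, with -0.27 (SE 0.25, adjusted p = 0.790), and held 85.0% to 92.5% of the per kb signal of the 6 listed beta tubulins in AP and 91.4% to 92.5% in BA mice. Stmn4 had -0.35 (SE 0.25, adjusted p = 0.744). None of these 4 genes passed, and for none of them were the groups apart.

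The 6 genes with an unadjusted p under 0.05 were Tuba4a, Dnah9, Kif20b, Kif24, Dnah8 and Kif13b. Tuba4a was at 69.1, 63.5 and 67.0 in BA and 83.9, 139 and 190.2 in AP mice, all 3 above the BA mice (0.96, SE 0.31, unadjusted p = 0.0132, adjusted p = 0.478). Kif20b was at 30.8, 34.8 and 31.4 in BA and 12.2, 14.04 and 7.41 in AP mice, all 3 below (-1.49, SE 0.27, unadjusted p = 0.000437, adjusted p = 0.237). Kif13b was at 3522, 3597 and 2747 in BA and 2824, 1711 and 1477 in AP mice, where AP replicate 1 overlaps the BA mice (-0.76, SE 0.29, unadjusted p = 0.0293, adjusted p = 0.582). Beside these values, the summed level of 9 of 9 microglial markers was between 1439 and 2873 in BA and between 3853 and 6746 in AP mice, with no overlap. All 9 markers had an unadjusted p under 0.05 and none was called, and their part in these values was not tested.

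Of the ciliary motors, Kif24 was at 163, 165 and 169.7 in BA and 144, 107 and 79.4 in AP mice (-0.63, SE 0.26, unadjusted p = 0.0403, adjusted p = 0.620). Dnah8, a heavy chain of the outer arm listed in this table alone, was at 73.4, 45.0 and 46.1 in BA and 45.2, 19 and 16.1 in AP mice (-1.12, SE 0.40, unadjusted p = 0.0214, adjusted p = 0.540). Dnah9 was at 9.46, 11.2 and 15.5 in BA and 17.9, 26.1 and 39.8 in AP mice (1.10, SE 0.32, unadjusted p = 0.00869, adjusted p = 0.425). Kif24 was below and Dnah9 above the BA mice in every AP mouse, while Dnah8 overlapped. Of the 5 ciliary genes called in AV mice, Kif24 is given above, and the others had values of 0.16 (Dnah10), 0.06 (Kif7), 0.21 (Kif19a) and -0.50 (Dnah3) in AP mice, with adjusted p from 0.799 to 0.956. The median difference from the BA mean over the 13 ciliary motors was -0.01 in AP replicate 1, -0.28 in AP replicate 2 and -0.52 in AP replicate 3.

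Related genes in the BA vs AP table had no call either. Unadjusted p under 0.05 were found for 2 of 29 listed motor adaptors, 1 of 34 other microtubule-binding proteins, 3 of 34 genes of tubulin folding and modification, 3 of 43 of intraflagellar transport and the axoneme and 1 of 2 other intermediate filaments. For the first 4 lists this is 6.90%, 2.94%, 8.82% and 6.98%, around or below the 7.77% of all genes. Mapk8ip2 was between 54.7 and 78.3 in BA and between 59.99 and 249.6 in AP mice (1.16, adjusted p = 0.643), and Mtus2, a microtubule-binding tip protein, had the largest increase (1.93, adjusted p = 0.392). Agbl5, a carboxypeptidase of tubulin, had the largest decrease (-1.27, adjusted p = 0.486).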

How the data were processed

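RNA of sorted YFP-positive amygdala cells of 8 mice was used (3 BA, 2 AV, 3 AP), with groups taken from the labels. The deposited values are a normalized signal that the authors gave for each gene in each mouse, in 2 tables. They sequenced stranded paired-end libraries of low input RNA, normalized by TMM, filtered low counts and, per the methods, corrected batches with ARSyN. Whether this was done for both tables, and the strand setting of the counting, are not given in the sources used here. Steps of single reads were measured in the BA vs AP values only. Low BA vs AV values lay closer together, such as 7.01, 7.63 and 7.95 for 3 genes in BA replicate 1. The 2 tables therefore appear to have been processed differently. Their numbers of calls therefore cannot be set against each other. The submitters' processing notes name bcl2fastq 2.20, Salmon 1.2 and GRCm38.p6.

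Genes were matched to GENCODE M21 by identifier, and 1 identifier of the BA vs AV table and 42 of the other had no symbol. Values were transformed as log2(value + 1) and every row of a table entered 1 limma fit (limma 3.58.1, R 4.3.3), with no covariate and no further filter, so fold changes are on the log2(value + 1) scale and understate those of low genes. P-values are two-sided and Benjamini-Hochberg adjusted over the whole table, with a threshold of 0.05. They rest on the spread between single mice that is left in the deposited values, with variances moderated over all rows. Any batch correction, and the paper's removal of 1 AV mouse as an outlier, came before and can make this spread smaller. Levels per kb use the length of all exons of a gene. Shared sequence is the percent of 31-base exon stretches that also occur in another gene. Promoters are from RefSeq. Low values count as on a step within 0.1 of it.

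The gene groups, related lists and markers were chosen with earlier results of these data known. Some members of the marker lists are not reported here and are left out of the marker sums. Named genes are a set of core members, the largest increase and decrease of each role, the 5 largest in each direction with a group mean of at least 100, and the ciliary motors. Alternatives were pseudocounts of 0.5 and 4, only genes with a mean of at least 20, centring on the median of each mouse, a variance prior that follows the mean, each mouse left out, and the replicate number as a block. The fit was also run on simulated data with large planted changes and independent noise, as a check of the code. This lends no support to the calls reported here. Python 3.11.15, pandas 2.3.3, numpy 2.4.6 and matplotlib 3.10.9 were used.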

Additional observations from a re-analysis of the deposited data

How the results depend on the processing

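With 2 AV mice the BA vs AV comparison is limited by its replicates, and its depth is unknown. Of the 23 genes called between BA and AV mice, the count became 24 with a pseudocount of 4, 23 with 0.5, 23 after centring, 30 with a variance prior that follows the mean and 21 among genes with a mean of at least 20, and between 18 and 25 without any 1 mouse. With the replicate number as a block, which leaves 1 residual degree of freedom among the mice, it was 13 (7 higher, 6 lower). The labels do not say whether the numbers pair the mice, and the values do not exclude it. Deviations of same-numbered mice correlated at -0.060 and -0.039 in BA and AV. With 2 AV mice these deviations mirror each other, so they cannot decide on a pairing. In BA and AP the values were 0.020, 0.121 and 0.081, and each AP mouse correlated best with the BA mouse of its number. This is a hint from the data and not the design. The block gave 0 calls between BA and AP mice, as did the other alternatives.

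The median of the transport genes in AV mice, -0.09, was -0.17 after centring and -0.13 to -0.02 without any 1 mouse. That of the ciliary motors, -0.91, was -0.81 with a pseudocount of 4, which pulls low genes towards 0 by construction, -1.01 with the block and -1.01 to -0.70 without any 1 mouse. That of the tubulins was 1.35 to 1.73 without any 1 mouse. In AP mice the medians without any 1 mouse were -0.13 to -0.04 for transport genes, -0.357 to -0.043 for ciliary motors, with -0.043 without BA replicate 3, and -0.073 to 0.39 for tubulins, with -0.073 without AP replicate 2 and 0.39 without AP replicate 1. The causes were not tested.

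Single genes were followed through the alternatives for 40 genes in AV and 13 in AP mice, and other named genes were not. Of these only Stmn1 in AV mice turned direction, to -0.068 after centring and to between -0.16 and 0.21 without any 1 mouse. Of the 40 genes, 10 lost their call with the block, among them Kif13a (adjusted p = 0.0661) and Kif1a (adjusted p = 0.125). After centring 1, Kif1a, lost its call (adjusted p = 0.0603). Kif21a gained one after centring (adjusted p = 0.0492), and with the variance prior that follows the mean 6 gained one: Map1a, Map1b, Mapt, Klc1, Dynll1 and Kif21a.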
